A study of Rattus norvegicus with 12 samples.

Results

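The genes described here encode the integrin subunits, the laminin chains, the syndecans, the glypicans and the matrix proteoglycans Vcan, Bgn and Dcn. The rule for choosing them used gene symbols and no measured value, though the family was picked with earlier results of these data known. It took the genes whose single symbol in the array annotation named a numbered integrin alpha or beta subunit, a laminin alpha, beta or gamma chain, a syndecan, a glypican or 1 of those proteoglycans. Integrin subunits named by a letter, the alpha v subunit among them, are outside the rule and were not analysed here. The rule found 35 genes among 15307 probe sets with 1 symbol, of 26468 probe sets in all. They were 8 integrin alpha subunits, 8 integrin beta subunits, 7 laminin chains, 4 syndecans, 5 glypicans and 3 matrix proteoglycans, and each was measured by 1 probe set. Of the 45 RefSeq genes that the symbols describe, 10 had no probe set of their own symbol and were not analysed here, among them Lama2, Lama4, Lamb1, Itga3, Itga8, Itga9 and Hspg2.

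The 12 arrays measured RNA of endothelial cells (ECs) of Wistar rats, with 3 arrays in each of 4 groups. The groups were ECs of the ductus arteriosus (DA) of neonates 30 minutes after a cesarean delivery (DA N), ECs of the aorta of the same age (aorta N), ECs of the DA of term fetuses at gestation day 21 (DA F) and ECs of the fetal aorta (aorta F). In every group the tissues of several litters were pooled and dispersed, and cells that carried CD31 and lacked CD45 were collected by a fluorescence-activated cell sorter, so that an array is a pool of animals and not 1 animal. No animal was treated and no allele was altered. The study's methods count litters by stage and by repeat, with no separate count for each vessel. Their total therefore does not show a separate litter pool for each of the 12 arrays. Whether both vessels were taken from the same litters is not stated, and the labels do not tie an array to its litters. The main fit treated the arrays as unpaired. The p-values measure the spread between these arrays.

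Integrins are receptors of 1 alpha and 1 beta subunit that hold a cell to its matrix and signal through talin, kindlins and focal adhesion kinase. Laminins are trimers of an alpha, a beta and a gamma chain, and they form the sheet of the basement membrane on which ECs rest. Syndecans span the membrane and glypicans are held on it by a lipid anchor, and both carry heparan sulfate chains that bind growth factors. Versican (Vcan), biglycan (Bgn) and decorin (Dcn) carry chondroitin or dermatan sulfate and lie in the matrix. The DA is the fetal artery that joins the pulmonary artery to the aorta, and its closure after birth involves thickening of the intima, in which ECs, matrix and migrating smooth muscle cells (SMCs) take part.

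Values are log2 signals as deposited, and a log2 difference is DA minus aorta unless stated otherwise. Only genes with an average signal at or above that of lys (4.44 over the 12 arrays), a spike RNA added at a low known amount, entered the test. Of the members, 34 were tested and Gpc5, a glypican best known from brain, was not, since its means were 3.94 in DA N, 3.93 in aorta N, 4.07 in DA F and 4.13 in aorta F. The lys spike itself varied, with 3.41 to 3.53 on the replicate 3 arrays and 4.53 to 6.17 on the replicate 1 arrays, where it exceeded the signal of 13 members in DA N, 9 in aorta N, 15 in DA F and 1 in aorta F. The array medians lay between 5.63 and 5.76.

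Between DA and aorta, 11 of the 34 members passed an adjusted p of 0.05 over both stages (limma with Benjamini-Hochberg adjustment over 18690 probe sets), 5 of them higher in DA and 6 lower. This is 32.4% of the members, against 8.12% of all probe sets tested, of which 3.19% were higher and 4.93% lower. Higher in DA were Gpc3, Gpc2, Itga4, Itgb3 and Vcan. Lower in DA were Lamb3, Lama3, Lamb2, Itgb4, Itga1 and Sdc2. The median log2 difference was -0.03 over the members and 0.00 over all probe sets tested, and 15 members lay above 0 and 19 below.

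Within N alone 6 members passed, against 3.14% of all probe sets, and within F alone 7 passed, against 3.77%. Lamb3, Lama3, Itgb4, Itga1, Sdc2 and Vcan passed at both stages, and Gpc3 passed in F only. That Gpc3 passed at 1 stage does not show that the stages differ, and the difference between the stages was not past the threshold for any member. With the replicate number as a block, as arrays of 1 number deviated together, 12 members passed in N, 10 in F and 17 over both stages, where the background was 7.27%, 10.4% and 17.8% of all probe sets. The arrays of DA and aorta did not overlap over both stages for 10 of the 34 members, against 6.98% of all probe sets.

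**Figure D1:**
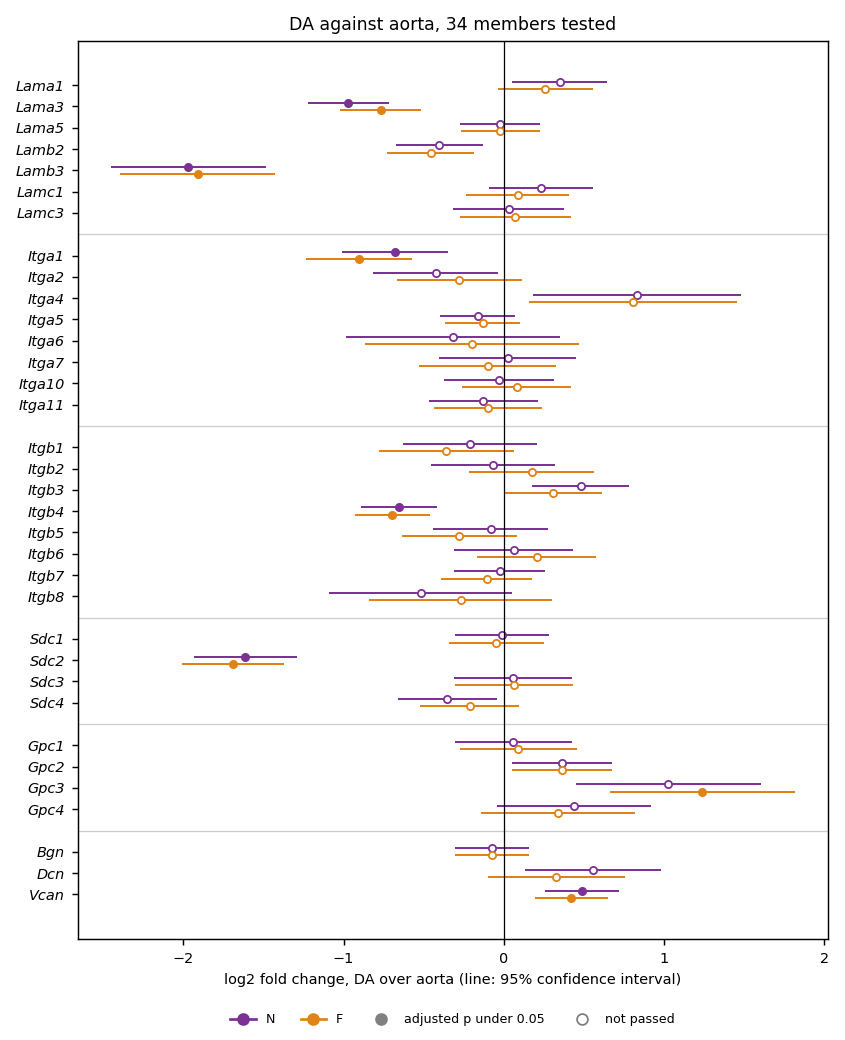
Log2 difference of DA over aorta for the 34 members tested, by class (laminins, integrin alpha subunits, integrin beta subunits, syndecans, glypicans, matrix proteoglycans from top to bottom), in N (purple) and F (orange), with 3 arrays a group. Lines are 95% confidence intervals of the limma fit and filled points passed an adjusted p of 0.05. Lamb3 and Sdc2 lie farthest to the left at both stages, and Gpc3 lies farthest to the right.

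Upstream sequences are printed for the genes with large differences in each direction, the Lama3 and Lamb3 chains of 1 laminin, the integrin subunit Itga1 and the glypican Gpc3. They are the 250 bases before an annotated start, 5′ to 3′ on the gene's strand, from the RefSeq promoter table of the GRCr8 assembly, which held 25 windows for 24 of the 34 members and none for Sdc2 or Itgb4. Lama3 is chr18:3952517-3952766 on the plus strand, Lamb3 is chr13:107362303-107362552 on the plus strand, Itga1 is chr2:48545284-48545533 on the minus strand and Gpc3 is chrX:137157599-137157848 on the minus strand. Capitals mark TGANTCA, the letters that AP-1 factors bind, and CANNTG, the E-box, both of which read the same on either strand.
Lama3: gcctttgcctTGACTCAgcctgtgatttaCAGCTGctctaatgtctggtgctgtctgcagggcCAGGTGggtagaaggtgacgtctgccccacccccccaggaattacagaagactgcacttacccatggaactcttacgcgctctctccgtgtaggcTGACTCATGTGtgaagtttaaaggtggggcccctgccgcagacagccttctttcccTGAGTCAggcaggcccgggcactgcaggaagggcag 
Lamb3: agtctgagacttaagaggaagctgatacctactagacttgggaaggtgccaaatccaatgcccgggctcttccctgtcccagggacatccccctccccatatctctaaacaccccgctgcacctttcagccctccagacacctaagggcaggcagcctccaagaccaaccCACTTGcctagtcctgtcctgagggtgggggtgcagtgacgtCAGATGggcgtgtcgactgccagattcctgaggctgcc 
Itga1: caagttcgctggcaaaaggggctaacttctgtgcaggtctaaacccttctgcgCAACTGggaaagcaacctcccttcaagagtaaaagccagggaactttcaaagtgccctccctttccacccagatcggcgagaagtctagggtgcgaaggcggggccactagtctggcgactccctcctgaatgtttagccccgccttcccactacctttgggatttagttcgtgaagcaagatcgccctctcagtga 
Gpc3: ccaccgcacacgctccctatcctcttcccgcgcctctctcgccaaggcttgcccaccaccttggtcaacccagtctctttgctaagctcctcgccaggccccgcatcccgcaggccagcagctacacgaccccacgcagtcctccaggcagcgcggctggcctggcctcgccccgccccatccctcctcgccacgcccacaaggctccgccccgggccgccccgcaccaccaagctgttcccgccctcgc

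Lama3 held 3 matches of TGANTCA, starting 240, 92 and 36 bases before the start, and the middle one overlapped a CANNTG match. At least 1 such match was present in 6.34% of the 33469 promoter windows of the same length, and 3 were present in 5 windows, 0.0149% of them. None of the other 24 member windows held TGANTCA. The E-box letters, found in 65.5% of all windows, occurred 3 times in Lama3, 2 times in Lamb3, 1 time in Itga1 and not in the Gpc3 window, of which 71.6% was G or C. A match is a description of these letters and was not tested for binding.

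The laminin chains differed strongly from each other. Lamb3, the beta 3 chain of the laminin that anchors epithelia, had log2 signals of 5.62, 4.98 and 5.25 in DA N and 7.47, 7.09 and 7.19 in aorta N, and 5.05, 5.54 and 5.75 in DA F and 7.52, 7.54 and 7.02 in aorta F. All 6 DA arrays lay below all 6 aorta arrays. Over both stages the log2 difference was -1.94 ± 0.155 (SE, limma adjusted p = 5.22e-06), which is 0.261 times the aorta level, with -1.97 in N and -1.91 in F. On 2 arrays, DA N replicate 1 and DA F replicate 1, Lamb3 lay below the lys spike. The spike read 5.78 and 6.17 there, above those arrays' medians of 5.65 and 5.67. These 2 readings therefore do not place Lamb3 at the low end of the array's range, and whether the difference is understated was not tested.

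Lama3, the alpha 3 chain of the same laminin, had 5.65, 5.42 and 5.46 in DA N and 6.55, 6.45 and 6.42 in aorta N, and 5.67, 5.43 and 5.48 in DA F and 6.33, 6.33 and 6.22 in aorta F. The DA arrays were again all below the aorta arrays, and the spread within a group was small. Lama3 also lay below the lys spike on 2 arrays, both of DA replicate 1. The log2 difference was -0.97 in N (limma adjusted p = 0.000349) and -0.77 in F (adjusted p = 0.00186).

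Lamb2, the beta 2 chain found in the basement membrane of mature vessels, had 10.06, 9.90 and 9.75 in DA N and 10.35, 10.32 and 10.25 in aorta N, and 9.75, 9.88 and 9.70 in DA F and 10.32, 10.31 and 10.07 in aorta F. The groups did not overlap at either stage, though the gap was narrow. Over both stages the log2 difference was -0.43 ± 0.0864 (limma adjusted p = 0.00723). Within a stage it missed the threshold, with an adjusted p of 0.131 in N and 0.0649 in F, and passed it with the replicate block, at 0.019 and 0.00781 (range over the alternatives 0.019 to 0.388 in N and 0.00781 to 0.27 in F).

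The 4 other laminin chains did not pass. Lama5, the alpha 5 chain of the main endothelial laminin of arteries, differed by -0.02 over both stages (95% confidence interval -0.19 to 0.15), so a change beyond that interval is not seen in these arrays. Lamc1, the gamma 1 chain shared by most laminins, differed by 0.16 (-0.07 to 0.38) and Lamc3 by 0.05 (-0.19 to 0.29). Lama1, the alpha 1 chain of early embryonic laminin, was 0.30 above aorta (0.10 to 0.51), with an adjusted p of 0.0768 and of 0.0306 under the replicate block (range over the alternatives 0.0306 to 0.218). Lamb3, Lama3 and Lamb2 were thus lower in DA, whereas no laminin chain was called higher.

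Among the integrin beta subunits, Itgb4 and Itgb3 were called in opposite directions. Itgb4 pairs with the alpha 6 subunit to bind laminins, among them the one that Lama3 and Lamb3 belong to. It had 9.32, 9.29 and 9.51 in DA N and 9.96, 10.02 and 10.11 in aorta N, and 9.18, 9.19 and 9.18 in DA F and 9.85, 9.94 and 9.85 in aorta F. All DA arrays were lower, and the 3 DA F arrays were almost equal. The log2 difference was -0.66 in N (limma adjusted p = 0.00389) and -0.69 in F (adjusted p = 0.0022), and over both stages the DA level was 0.626 times the aorta level.

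Its partner Itga6 did not pass, with a log2 difference of -0.26 over both stages and a wide interval of -0.73 to 0.21. On single arrays it varied between 5.36 and 6.14 in DA N, 5.67 and 6.52 in aorta N, 5.32 and 5.79 in DA F, and 5.23 and 6.34 in aorta F. A change of Itga6 as large as that of Itgb4 therefore falls inside its interval.

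Itgb3, which pairs with the alpha v subunit to bind vitronectin and fibrinogen, had 6.63, 6.54 and 6.21 in DA N and 6.09, 5.94 and 5.91 in aorta N, and 6.13, 6.24 and 6.30 in DA F and 5.90, 6.08 and 5.76 in aorta F. The DA arrays were higher throughout, by narrow margins. The log2 difference over both stages was 0.39 ± 0.0961 (limma adjusted p = 0.0229), with 0.48 in N and 0.31 in F. In N alone it passed only with the replicate block or without DA N replicate 3 among the alternatives (adjusted p 0.098 unblocked and 0.0257 blocked, range 0.0257 to 0.349).

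Itgb1, the beta subunit of most collagen, laminin and fibronectin receptors, had means of 11.23 in DA N, 11.44 in aorta N, 11.14 in DA F and 11.50 in aorta F. Its arrays overlapped between DA and aorta and the difference of -0.28 over both stages did not pass (adjusted p = 0.293). Within each replicate number, however, the difference was below 0, at -0.23 to -0.17 in N and -0.55 to -0.13 in F, and the blocked fit called it (adjusted p 0.0136, range over the alternatives 0.0136 to 0.523). Itgb5, another partner of the alpha v subunit, differed by -0.18 (-0.43 to 0.07).

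Itgb8, which pairs with the alpha v subunit and activates latent Tgfb, behaved likewise, with -0.39 over both stages (adjusted p 0.283, blocked 0.00831, range 0.00831 to 0.508) and a difference below 0 in each of the 6 replicate pairs. The beta subunits typical of leukocytes and epithelia, Itgb2, Itgb7 and Itgb6, were below lys on 3 to 5 arrays and did not pass.

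Of the 8 integrin alpha subunits, 2 were called over both stages, and 6 lay below 0. Itga1, the alpha subunit of a collagen receptor, had 7.04, 7.13 and 6.76 in DA N and 7.78, 7.72 and 7.46 in aorta N, and 6.85, 6.64 and 6.73 in DA F and 7.88, 7.60 and 7.46 in aorta F. DA and aorta did not overlap. The log2 difference was -0.68 in N and -0.90 in F, and -0.79 ± 0.105 over both (limma adjusted p = 0.000368), which is 0.579 times the aorta level.

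The call of Itga1 in N (adjusted p = 0.0271) was lost without DA N replicate 1, 2 or 3, without aorta N replicate 1 or 2, or without all replicate 1 arrays, up to an adjusted p of 0.126. Over both stages it held without any single array. Itga2, another collagen-binding subunit and the neighbouring gene on chromosome 2, differed by -0.35 (95% confidence interval -0.62 to -0.08, adjusted p = 0.13, range over the alternatives 0.0295 to 0.263). It passed without DA F replicate 1 and with replicates 2 and 3 alone, and had all DA N arrays under all aorta N arrays, while its F arrays overlapped.

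Itga4, which pairs with Itgb1 or Itgb7 to bind Vcam1 and fibronectin, had 7.2, 6.82 and 6.30 in DA N and 6.31, 5.99 and 5.52 in aorta N, and 7.05, 7.23 and 6.56 in DA F and 6.69, 5.82 and 5.90 in aorta F. The groups overlapped at both stages, yet the DA array was the higher of every replicate pair, by 0.36 to 1.41. The log2 difference was 0.82 ± 0.208 over both stages (limma adjusted p = 0.0288). Within a stage it passed only with the replicate block (adjusted p 0.233 in N, blocked 0.00645, range 0.00645 to 0.622, and 0.214 in F, blocked 0.00654, range 0.00654 to 0.535).

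The call of Itga4 over both stages was lost without DA N replicate 1 or 2, aorta N replicate 2 or 3, DA F replicate 1 or 2, or aorta F replicate 2 or 3, and that of Itgb3 without DA N replicate 1 or 2, aorta N replicate 2 or 3, DA F replicate 2 or 3, aorta F replicate 3, or all replicate 1 arrays. The adjusted p rose to at most 0.082 for Itga4 and 0.088 for Itgb3. Itga5, the alpha subunit of the fibronectin receptor, was lower in DA on every array, with means of 11.43 in DA N, 11.59 in aorta N, 11.41 in DA F and 11.55 in aorta F, but the difference of -0.15 did not pass (adjusted p = 0.334). Itga7, Itga10 and Itga11 lay near the lys spike, with differences of -0.04, 0.03 and -0.11.

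**Figure D2:**
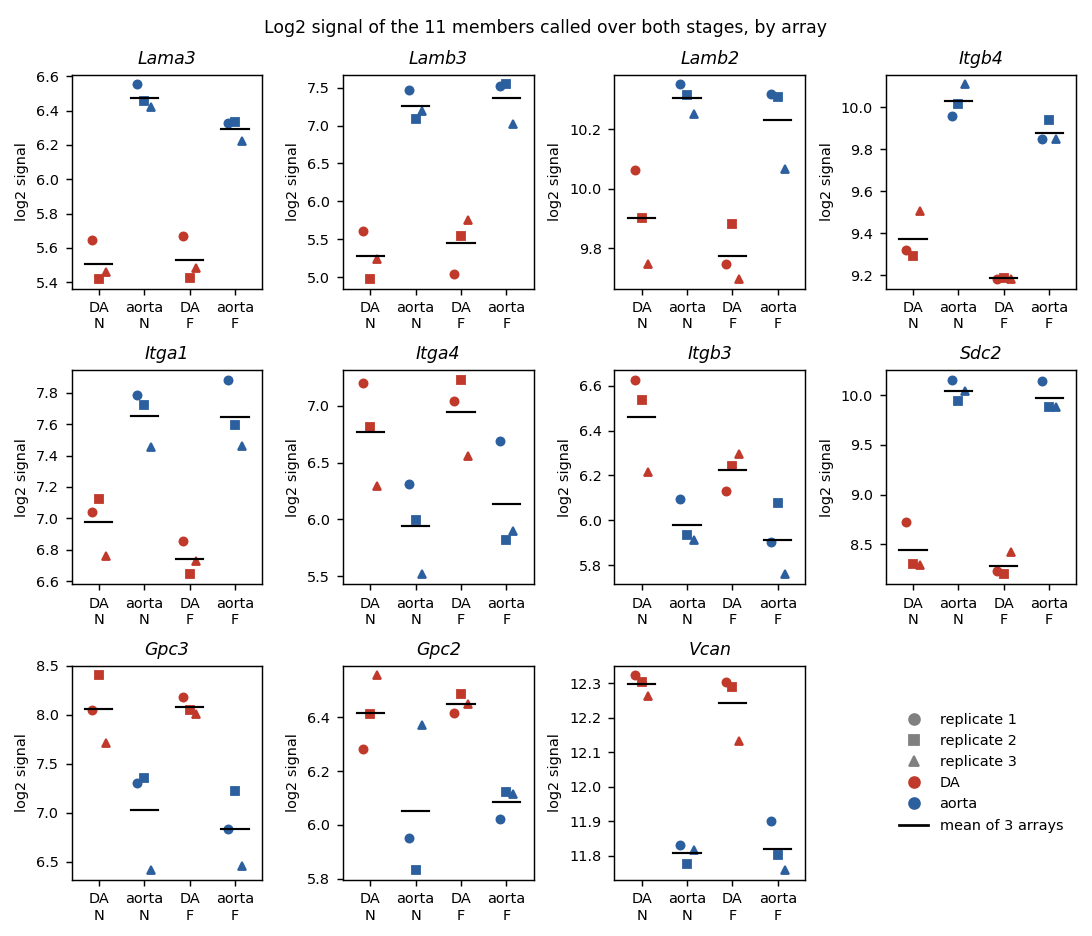
Log2 signal on each array of the 11 members called over both stages, for DA N, aorta N, DA F and aorta F from left to right (red DA, blue aorta, symbols for replicates 1 to 3, bars for the mean of 3 arrays, each panel with its own scale). Lama3, Lamb3, Lamb2, Itgb4, Itga1 and Sdc2 are lower in DA on every array, Gpc3, Itgb3 and Vcan are higher on every array, and Itga4 and Gpc2 overlap.

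Of the 4 syndecans only Sdc2 was called. Sdc2, the syndecan of fibroblasts and ECs that acts beside growth factor receptors, had 8.73, 8.30 and 8.29 in DA N and 10.16, 9.94 and 10.05 in aorta N, and 8.23, 8.19 and 8.42 in DA F and 10.15, 9.88 and 9.88 in aorta F. The gap between the vessels exceeded a whole log2 unit on every array. The log2 difference was -1.61 ± 0.145 in N (limma adjusted p = 4.92e-05) and -1.69 ± 0.145 in F (adjusted p = 3.24e-05), and the DA level over both stages was 0.318 times that of the aorta.

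Sdc1 and Sdc3 were strongly detected and nearly equal in the vessels. Sdc1, the syndecan of epithelia that the EC surface also carries, differed by -0.03 over both stages (95% confidence interval -0.23 to 0.18), and Sdc3 by 0.06 (-0.20 to 0.32). Sdc4, the syndecan of focal adhesions, was 6.74 in DA N, 7.09 in aorta N, 6.71 in DA F and 6.93 in aorta F on average. Its difference of -0.28 had an adjusted p of 0.123, and of 0.0276 with the replicate block (range over the alternatives 0.0276 to 0.312).

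All 4 glypicans tested lay above aorta, with log2 differences over both stages from 0.07 to 1.13 and a median of 0.38, and 2 of them were called. Gpc3, a glypican that binds Wnt and hedgehog proteins and limits body growth, had 8.05, 8.40 and 7.71 in DA N and 7.31, 7.36 and 6.42 in aorta N, and 8.18, 8.05 and 8.01 in DA F and 6.84, 7.22 and 6.46 in aorta F. The DA arrays were higher throughout, and aorta replicate 3 was the lowest array at both stages. Over both stages the difference was 1.13 ± 0.186 (limma adjusted p = 0.00173), or 2.19 times the aorta level.

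In F Gpc3 passed (1.24, limma adjusted p = 0.0175), though not without any 1 of the 3 DA F arrays, aorta F replicate 1 or 3, or all replicate 1 arrays, where it reached up to 0.138. In N it missed the threshold narrowly (1.03, adjusted p = 0.0585) and passed with the replicate block, with quantile normalization and without DA N replicate 3 (block 0.00139, range over the alternatives 0.00139 to 0.277). Gpc4, which lies close to Gpc3 on chromosome X with 2 genes between, differed by 0.39 (95% confidence interval 0.05 to 0.72, adjusted p = 0.187) and was called only with the block (0.0078, range 0.0078 to 0.364). DA exceeded aorta for Gpc4 in 5 of the 6 replicate pairs.

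Gpc2, a glypican of developing tissue, had 6.28, 6.41 and 6.56 in DA N and 5.95, 5.83 and 6.37 in aorta N, and 6.42, 6.48 and 6.45 in DA F and 6.02, 6.12 and 6.11 in aorta F. The vessels separated in F and overlapped in N through aorta replicate 3. Its difference of 0.36 ± 0.0999 passed over both stages (limma adjusted p = 0.0428) at the edge of the threshold, and the call was lost without any single array other than DA N replicate 1 or aorta N replicate 3, and also without all replicate 1 arrays, without the filter, with the filter on 3 arrays and with a variance trend, up to an adjusted p of 0.157. Gpc1, the most widely expressed glypican, differed by 0.07 (-0.18 to 0.33).

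Vcan was higher in DA at both stages. Versican binds hyaluronan in the expanding intima, and its probe set read 12.32, 12.30 and 12.26 in DA N and 11.83, 11.78 and 11.82 in aorta N, and 12.30, 12.29 and 12.13 in DA F and 11.90, 11.80 and 11.76 in aorta F. No DA array reached down to an aorta array. The log2 difference was 0.49 in N (limma adjusted p = 0.0197) and 0.42 in F (adjusted p = 0.0393), which over both stages is 1.37 times the aorta level.

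The size of the Vcan difference varied little between arrays, but its calls within a stage lay near the threshold. The call in N was lost without DA N replicate 1 or 2, any aorta N array, or all replicate 1 arrays (up to 0.143), and that in F without any DA F, aorta F or aorta N array, DA N replicate 2, or all replicate 1 arrays, and under both other filters (up to 0.169). Over both stages it passed without any single array. Dcn, which binds collagen fibrils and Tgfb, was higher by 0.44 (95% confidence interval 0.15 to 0.74, adjusted p = 0.0745, blocked 0.0184, range 0.0184 to 0.313), and Bgn, its close relative, differed by -0.07 (-0.23 to 0.09).

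Lists of genes that act with the members were also counted over both stages. The lists cover the genes with a probe set of their own symbol, and the others were not analysed here. Over both stages 8.12% of all probe sets passed, and 17.8% with the block. Of the 30 listed genes of the integrin adhesion complex 24 were tested, of which Src was higher and Lims2 lower, a share close to that background, and the median difference was -0.04. Src, the kinase that acts beside focal adhesion kinase, averaged 7.29 in DA N, 6.61 in aorta N, 7.32 in DA F and 6.4 in aorta F (log2 difference 0.80, limma adjusted p = 9.56e-05). Lims2, an adapter that joins integrin-linked kinase to the cytoskeleton, averaged 7.74 in DA N, 9.04 in aorta N, 7.66 in DA F and 9.0 in aorta F (-1.32, adjusted p = 2.49e-05). With the block 7 of the 24 passed.

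Of the 29 listed ligands and basement membrane partners 15 were tested and 3 passed, with a median of -0.01. Emilin1, an elastic fiber glycoprotein and integrin ligand, was higher by 0.46, while Bcam, a receptor for the alpha 5 laminin chain, was lower (-0.52, limma adjusted p = 0.000757), and so was agrin, Agrn, a heparan sulfate proteoglycan of basement membranes (-0.25, adjusted p = 0.0478), while leaving out any single array gave 2 calls in this list. Of the 28 listed enzymes of heparan sulfate synthesis and editing 20 had such a probe set and 19 were tested. Of these 2 passed, both lower, with a median of -0.10. Of the enzymes without such a probe set, the study lists Ndst3 and Hs6st2 as more than 2-fold higher in DA at both stages. The tested enzymes therefore do not give the direction of the whole list. Hs3st1, which makes the sulfation that antithrombin binds, differed by -0.81 (adjusted p = 0.00173) and Sulf1, which removes sulfate groups outside the cell, by -0.42 (adjusted p = 0.00737). With the block 7 of the 19 passed.

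Of the 26 other proteoglycans and link proteins listed 18 were tested, 5 passed and the median was -0.20. Hapln1, the link protein that fixes versican to hyaluronan, averaged 5.63 in DA N, 7.14 in aorta N, 5.77 in DA F and 7.17 in aorta F (log2 difference -1.45, limma adjusted p = 1.62e-05). It was thus lower in DA where Vcan was higher, and the pair are neighbours on chromosome 2 with no protein-coding gene between them. Hapln3, a link protein of the same family, was lower too (-0.57, adjusted p = 0.002), as was the small proteoglycan Aspn (-0.85, adjusted p = 0.000971). Cspg4, a proteoglycan of pericytes and SMCs, was higher (0.79, adjusted p = 0.00053), and so was Prelp (0.49, adjusted p = 0.0198). With the block 8 of the 18 passed.

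**Figure D3:**
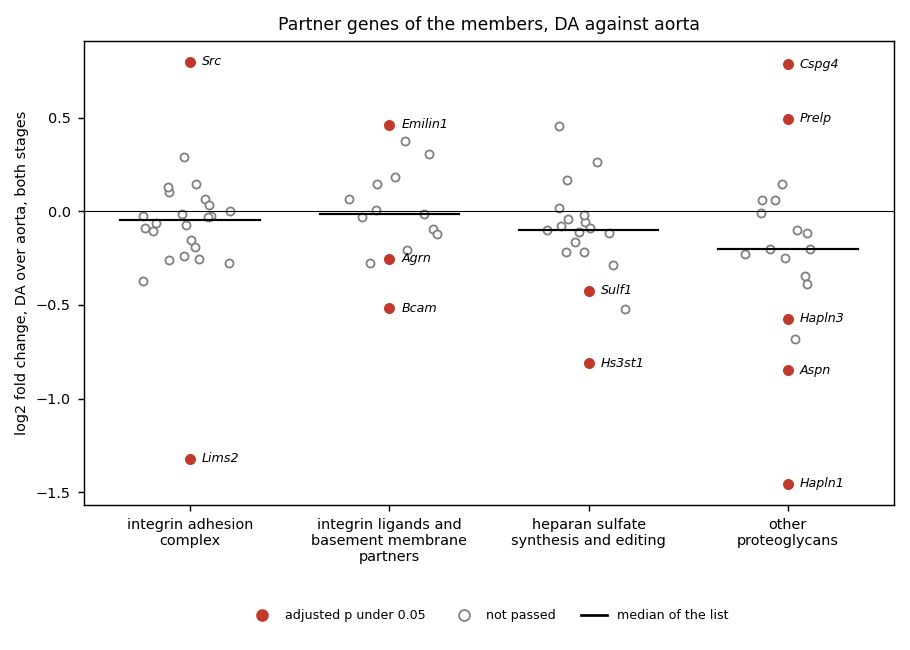
Log2 difference of DA over aorta over both stages (6 arrays each) for each gene tested of the 4 partner lists, from left to right the integrin adhesion complex, the ligands and basement membrane partners, the heparan sulfate enzymes and the other proteoglycans. Red points passed an adjusted p of 0.05 and bars are list medians, from -0.20 to -0.01. Hapln1 and Lims2 lie lowest and Src and Cspg4 highest.

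Some markers of other cells differed between the vessels. Of 8 SMC markers, 4 were higher in DA (Acta2, Tagln, Des and Actg2) and 1 lower (Myocd), and their summed linear signal was 3329 to 4264 in DA N, 2356 to 2620 in aorta N, 3229 to 3406 in DA F and 2180 to 2588 in aorta F. Of 8 fibroblast markers, Col1a2 and Pdgfrb were higher and Col1a1 and Fbln1 lower, with sums of 6464 to 6814 in DA N, 6821 to 7307 in aorta N, 5750 to 6784 in DA F and 6933 to 7307 in aorta F. Of 12 endothelial markers, Flt1 and Cldn5 were lower and none was higher, with sums of 20146 to 21635 in DA N, 22398 to 23653 in aorta N, 20199 to 20790 in DA F and 21649 to 23492 in aorta F.

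Msln, of 5 mesothelial markers tested, was higher in DA (0.56, limma adjusted p = 0.00244), Tnnt2, of 6 cardiomyocyte markers, was lower (-0.70, adjusted p = 0.00107), and Cd14, of 4 leukocyte markers, was lower (-0.57, adjusted p = 0.0224). No marker of platelets (4 tested), erythroid cells (3) or Schwann cells (2) passed.

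Vcan, Dcn, Itga1, Sdc2 and some laminin chains, Lamb2 among them, are made by SMCs or fibroblasts as well as by ECs. Lamb3 and Lama3 belong to the laminin that anchors epithelia. The part of any of these other cells in the differences was not tested. Ptprc, which encodes CD45, averaged 3.27 in DA N, 3.68 in aorta N, 3.30 in DA F and 3.36 in aorta F, below the lys mean. Of the 8 leukocyte markers 4 were below that mean, Ptprc among them. Over the 12 arrays Cd68 averaged 8.01, Cd14 6.34, Cd79b 5.52 and Csf1r 4.78, all above it. Pecam1, which encodes CD31, averaged 12.06 in DA N and 12.17 in aorta N and differed by -0.14 over both stages (limma adjusted p = 0.466). In these bulk samples fewer cells of a type and less RNA per cell cannot be told apart.

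No member differed detectably between N and F. None passed in N against F in DA, in aorta, or in the difference between the vessels (limma), none had an unadjusted p under 0.05 in any of these contrasts, and none passed with the replicate block or with the methods' t-test, which was run within each vessel. Among all probe sets tested 0.00535% passed in DA, 0% in aorta and 0% in the difference between the vessels, and with the block 0.0535%, 0.0161% and 0%. An unadjusted p under 0.05 was reached by 375 of the 18690 probe sets tested in DA, 257 in aorta and 174 in the difference. Each count is below a share of 0.05 of all probe sets, so the unblocked fit was strict in these contrasts. That no member reached such a p therefore says little. The log2 differences of N over F lay between -0.21 and 0.30 in DA and between -0.19 and 0.55 in aorta.

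For the members that separated the vessels, the intervals of N over F bound what could have been missed. Sdc2 differed by 0.16 in DA (95% confidence interval -0.16 to 0.47) and by 0.08 in aorta (-0.24 to 0.39), and Vcan by 0.05 in DA (-0.17 to 0.28) and -0.01 in aorta (-0.23 to 0.21). Lamb3 differed by -0.17 in DA (-0.64 to 0.31) and -0.11 in aorta (-0.59 to 0.37). Gpc3 had wider bounds, at -0.02 in DA (-0.59 to 0.55) and 0.19 in aorta (-0.38 to 0.76). For Sdc2, Vcan, Lamb3 and Gpc3 these intervals lie inside the size of the difference between the vessels over both stages. This did not hold for every called member. For Itgb3 the interval in DA reached 0.53, against a vessel difference of 0.39. For Itga4 the interval in aorta was -0.84 to 0.45, against a vessel difference of 0.82.

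The widest stage difference was that of Itgb8 in aorta, at 0.55 (95% confidence interval -0.01 to 1.11), and it was 0.30 in DA (-0.26 to 0.86). Itga1 differed by 0.23 in DA (-0.09 to 0.56) and 0.01 in aorta (-0.32 to 0.33), and Itgb3 by 0.24 in DA (-0.06 to 0.53) and 0.07 in aorta (-0.23 to 0.36). The change of the vessel difference between N and F lay between -0.25 and 0.23 for the 34 members.

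**Figure D4:**
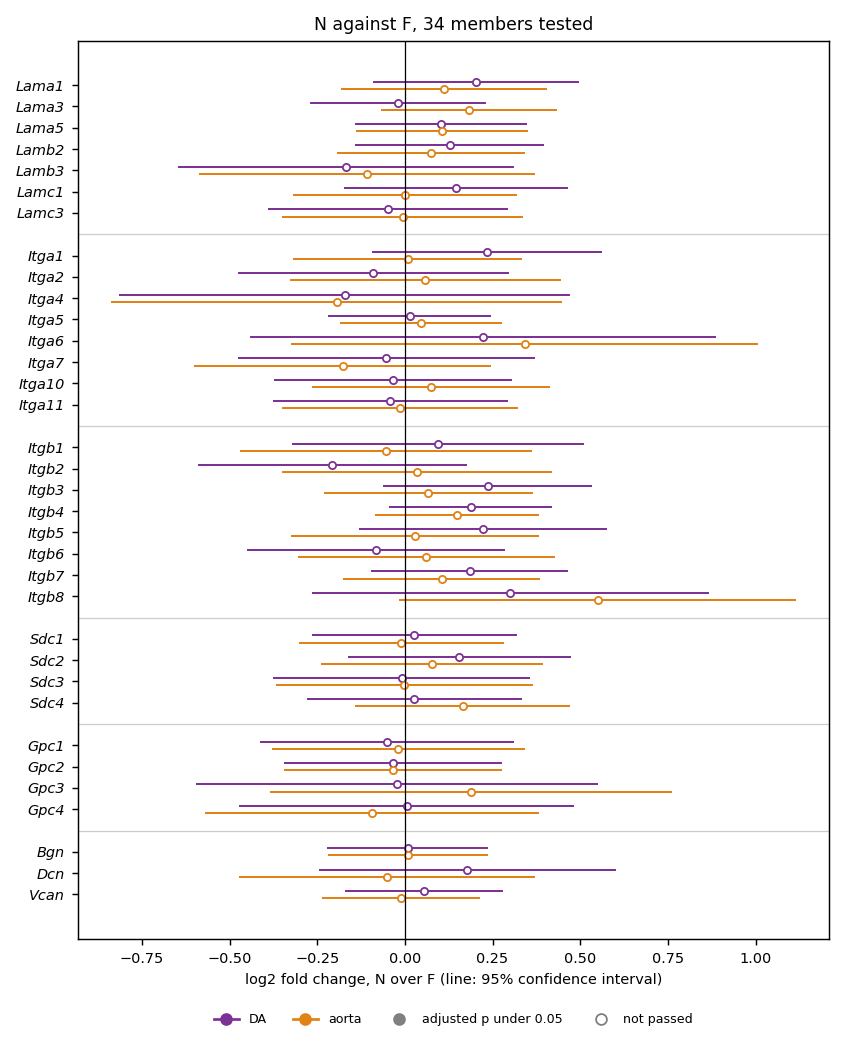
Log2 difference of N over F for the 34 members tested, by class as in the plot of DA over aorta, in DA (purple) and aorta (orange), with 3 arrays a group. Lines are 95% confidence intervals of the limma fit, and no point passed an adjusted p of 0.05. Itgb8 in aorta lies farthest to the right, at 0.55.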

How the data were processed

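RNA of sorted ECs was hybridised to 1-colour Affymetrix Rat Gene 1.0 ST arrays, 3 per group. The authors deposited log2 signals per probe set. The software and normalization behind them are not given in the sources used here. Genes were named from the platform annotation where a probe set had 1 symbol. Members and lists were chosen with earlier results of these data known, and the 3 binding proteins with an integrin-like symbol (Itgb1bp1, Itgb1bp2 and Itgb3bp) were left out.

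Probe sets at or above the mean of lys were fitted together in limma 3.58.1 (R 4.3.3, lmFit and eBayes, 4 group means, unpaired, two-sided), and p-values were adjusted over all of them. Per-array values are given for the members called in any contrast, measured by probe sets 10766809 (Lamb3), 10800237 (Lama3), 10793140 (Lamb2), 10739721 (Itgb4), 10940577 (Itgb3), 10821450 (Itga1), 10837138 (Itga4), 10896020 (Sdc2), 10939764 (Gpc3), 10760895 (Gpc2) and 10820282 (Vcan). Arrays of the same replicate number deviated together, their deviations from the group means correlating at 0.54 to 0.82 (number 1), 0.10 to 0.30 (number 2) and 0.39 to 0.74 (number 3), so a fit with the number as a block is given. The labels do not say what a number shares. Other alternatives were no filter, a filter on 3 arrays at lys, quantile normalization, a variance trend, the methods' t-test, each array left out, and replicates 2 and 3 alone, which was chosen after seeing the data. Precision is limited by having 3 arrays a group. The limma step was tested on simulated data.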

Additional observations from a re-analysis of the deposited data

Results flagged for a closer look

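Lama3 had stage differences of opposite sign in the vessels, neither of which passed. N minus F was -0.02 on average in DA and 0.18 in aorta, a difference of -0.20, and in the 3 replicate pairs of DA the sign was opposite to that in the 3 pairs of aorta. The limma test of this difference did not pass (unadjusted p 0.237, adjusted p = 1).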

How the results depend on the processing

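The 11 members called over both stages kept their direction under every alternative run. The block, the filters, the variance trend and the t-test do not change the group means, so under them the direction could not change. Only quantile normalization and the fits without some arrays could have changed it. With the replicate block, 12 members passed in N and 17 over both stages, and the counts rose to 7 for the integrin adhesion complex, 7 for the heparan sulfate enzymes, 8 for the other proteoglycans, 2 for leukocyte markers and 3 for mesothelial markers. The block ended no member's call. The methods' t-test, at their p and fold limits, was run on the 18690 probe sets kept here. It passed 3 members in N, 3 in F and 3 over both stages, and after Benjamini-Hochberg 1 in N, 2 in F and 12 over both stages. The share of all probe sets that passed this t-test is not given here. Its counts therefore do not show whether the members passed more often than other genes. The study itself excluded more probe sets by the lys signal and compared the vessels at each stage alone, so these counts are not those of the study. With replicates 2 and 3 alone, 1 ligand or basement membrane partner and 1 erythroid marker passed.

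Leaving out each array in turn gave 4 to 7 members in N, 5 to 7 in F, 8 to 10 over both stages, and 0 for each stage contrast. It gave 2 to 3 genes of the adhesion complex and 2 to 3 heparan sulfate enzymes, 2 ligands or partners, and 4 to 6 other proteoglycans. Among markers it gave 2 endothelial, 5 to 6 SMC, 2 to 4 fibroblast, 0 to 1 leukocyte, 0 platelet, 0 to 1 erythroid, 1 to 2 mesothelial, 0 Schwann cell and 1 cardiomyocyte. The fibroblast count was 2 without DA N replicate 2 or 3, aorta N replicate 1 or 2, DA F replicate 1, or aorta F replicate 1 or 3. The leukocyte count was 0 without DA N replicate 2, aorta N replicate 1, or DA F replicate 2 or 3. Quantile normalization moved the median of all probe sets by under 0.02. The mean over a gene's probe sets was not run, since each member had 1. Signals below lys on some arrays limit Lamb3, Lama3, Lama1, Lamc3, Gpc1 and the integrin subunits of low signal. These were mostly replicate 1 arrays, where the spike itself read up to 6.17.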
